A study of Homo sapiens with 8 samples.

Results

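The small heat shock protein genes of A375 cells were examined across HSP90 inhibition and HSF1 knockdown. They were HSPB1, CRYAB, HSPB2, HSPB3, HSPB6, HSPB7, HSPB8, HSPB11 and CRYAA, that is 9 of the 19775 genes with a probe set of their own on the arrays, and were chosen by name. Earlier results of these data were known when they were chosen. Every probe set that the array annotation assigns to 1 of these symbols alone was taken, which gave 14 probe sets. HSPB11 stands in the annotation under its current symbol IFT25.

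Small heat shock proteins are chaperones that use no ATP. They carry an alpha-crystallin domain, assemble into oligomers, and hold unfolding proteins in a soluble state until the HSP70 machine refolds them or passes them on for degradation. Several of their genes are targets of HSF1, the transcription factor of the heat shock response, which HSP90 holds in check in unstressed cells. Inhibitors of HSP90 release it. Other members are known mainly from muscle (HSPB2, HSPB3, HSPB6, HSPB7) or from the eye lens (CRYAA).

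A375 is a human melanoma line. It carried a hairpin under a Doxycycline-inducible promoter, directed either at HSF1 (shHSF1) or at no target (shNTC), and 8 arrays were made, 2 in each of 4 groups. The titles of all shHSF1 samples name the same hairpin, so that any off-target effect and the loss of HSF1 cannot be told apart. Named by hairpin and additions, the groups are shHSF1 Dox HSP990, shHSF1 HSP990, shNTC Dox DMSO and shNTC DMSO. HSP990 stands for NVP-HSP990, an HSP90 inhibitor given at 100 nM for 3 h, and DMSO for its vehicle at 0.1%. Dox stands for Doxycycline, given at 100 ng/mL over the 3 days before, which switches the hairpin on. The growth notes name Doxycycline for every culture, whereas the titles mark it in 4 of the 8 samples, and the groups follow the titles. Every culture with the inhibitor held the shHSF1 hairpin and every culture with DMSO the shNTC hairpin, so that the inhibitor and the hairpin line cannot be told apart. Whether both arrays of a group came from cultures of their own is not in the labels, and p-values then measure only how far arrays differ, in part perhaps for technical reasons. In such bulk RNA, fewer cells with a transcript and less of it per cell cannot be told apart.

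The sequences just upstream of the genes are shown because HSF1 binds heat shock elements, inverted repeats of the unit GAA (read TTC on the other strand). RefSeq windows (GRCh38.p14) of the 250 bases before the transcription start were found for 7 of the 9 genes, all but CRYAB and HSPB2. The forms of 2 units searched were GAANNTTC and TTCNNGAA, each its own reverse complement. The forms of 3 units were either of these followed by any 2 bases and a further unit (GAA or TTC, in alternation), which are reverse complements of each other. Shown are HSPB1 (chr7:76302423-76302672, plus strand), HSPB8 (chr12:119178681-119178930, plus strand), HSPB6 (chr19:35757030-35757279, minus strand) and HSPB11 (chr1:53946306-53946555, minus strand), 5′ to 3′ on the strand of the gene, with matches in capitals.
HSPB1: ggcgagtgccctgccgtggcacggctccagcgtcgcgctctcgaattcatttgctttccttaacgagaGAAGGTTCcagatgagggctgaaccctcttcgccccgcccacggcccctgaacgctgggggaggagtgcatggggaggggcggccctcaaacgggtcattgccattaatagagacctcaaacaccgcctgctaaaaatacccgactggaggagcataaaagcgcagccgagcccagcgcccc
HSPB8: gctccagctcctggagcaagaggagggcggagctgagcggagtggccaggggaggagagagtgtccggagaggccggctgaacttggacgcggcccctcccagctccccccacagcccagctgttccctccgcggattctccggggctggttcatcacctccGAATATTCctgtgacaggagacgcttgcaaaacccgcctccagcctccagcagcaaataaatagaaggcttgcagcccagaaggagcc
HSPB6: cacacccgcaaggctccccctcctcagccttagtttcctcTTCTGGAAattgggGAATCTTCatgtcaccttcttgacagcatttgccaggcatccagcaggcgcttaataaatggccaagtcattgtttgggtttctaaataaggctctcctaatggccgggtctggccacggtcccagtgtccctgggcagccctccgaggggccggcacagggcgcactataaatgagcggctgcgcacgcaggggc
HSPB11: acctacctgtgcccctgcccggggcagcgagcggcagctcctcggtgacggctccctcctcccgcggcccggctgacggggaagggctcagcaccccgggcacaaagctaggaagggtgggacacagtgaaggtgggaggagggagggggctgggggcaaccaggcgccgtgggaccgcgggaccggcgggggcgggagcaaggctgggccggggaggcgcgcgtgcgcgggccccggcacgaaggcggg

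HSPB1 held GAANNTTC 182 to 175 bases before its start and HSPB8 held it 88 to 81 bases before. HSPB6 held TTCNNGAA at 210 to 203 and GAANNTTC at 196 to 189 bases before the start, and HSPB3, not shown, held TTCNNGAA at 242 to 235. No match was found for HSPB7, HSPB11 or CRYAA. A form of 2 units was thus found in 4 of the 7 genes. These have 9 windows in all, since HSPB11 (the upstream one shown) and CRYAA have 2 each, and 4 of the 9 windows held the form, beside 11.6% of 35116 promoter windows of this length (5.78% for GAANNTTC and 6.62% for TTCNNGAA). A form of 3 units was found in none of the 9 windows, beside 0.441% of the windows (0.225% for the form that starts with GAA and 0.248% for the form that starts with TTC). A match describes letters only, and no binding was measured in these samples.

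The values are MAS5 signals, scaled to a common trimmed mean on each array, and the median probe set of an array had a signal of 10.6 to 14.2. HSF1, the target of the hairpin, had signals of 5.5 and 7.3 in shHSF1 Dox HSP990 cells, 99 and 42.5 in shHSF1 HSP990 cells, 36.6 and 47.9 in shNTC Dox DMSO cells, and 38.2 and 47.3 in shNTC DMSO cells. It fell by 1.87 with the knockdown (log2, SE 0.29, adjusted p = 0.00754). Of 9 melanoma lineage genes with a probe set, MITF, SOX10, S100B, PAX3 and S100A1 lay at or above the median in all 8 arrays, and MLANA, PMEL, TYR and TYRP1, which define pigmented melanocytes, lay below it in all 8. Of 6 fibroblast markers, 2 lay at or above the median in all 8 arrays and 2 below it in all 8. They did not move together, and 4 of them could be tested. LUM, a matrix proteoglycan, was called higher with the knockdown (0.71, adjusted p = 0.0385) and with knockdown and inhibitor together (0.80, adjusted p = 0.0153), while COL1A1, DCN and PDGFRA had differences of -0.38, -0.15 and -0.40 with the knockdown, none of them called. LUM had signals of 756.3 and 708.2 in shHSF1 Dox HSP990 cells, 450.9 and 429.7 in shHSF1 HSP990 cells, 460.3 and 373.5 in shNTC Dox DMSO cells, and 421.2 and 430.7 in shNTC DMSO cells, and made up most of the sum over the 6 markers. That sum was 824 to 894 in shHSF1 Dox HSP990 cells and 596 to 630 in shHSF1 HSP990 cells, against 490 to 573 in shNTC Dox DMSO cells and 561 to 577 in shNTC DMSO cells. The 3′ over 5′ signal ratio of ACTB, which grows as RNA degrades, was 4.73 to 46.8 and was highest in replicate 2 of shNTC Dox DMSO cells. The part of fibroblast transcripts and of RNA quality in the results was not tested.

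Tests were run with limma on log2(signal + 16) over all genes, with adjustment by Benjamini-Hochberg over the 12672 genes whose signal reached the median probe set on 2 or more arrays. Calls needed an adjusted p below 0.05. The NVP-HSP990 comparison set shHSF1 HSP990 cells against shNTC DMSO cells, the knockdown comparison shHSF1 Dox HSP990 cells against shHSF1 HSP990 cells, and the Doxycycline comparison shNTC Dox DMSO cells against shNTC DMSO cells. Knockdown and inhibitor together were compared as shHSF1 Dox HSP990 cells against shNTC Dox DMSO cells. The value added before the log understates changes of low signals. Of the 9 small heat shock protein genes, 6 could be tested, namely HSPB1, CRYAB, HSPB8, HSPB6, HSPB3 and HSPB11. HSPB2, HSPB7 and CRYAA lay below the median in all 8 arrays. By the probe set that stood for the gene, HSPB1, HSPB8 and HSPB11 were at or above it in all 8, HSPB6 in 7, HSPB3 in 6 and CRYAB in only 3, so that CRYAB entered the tests only through shHSF1 HSP990 cells, the group in which it was high, and had to differ. Its calls are given as a description.

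**Figure D1:**
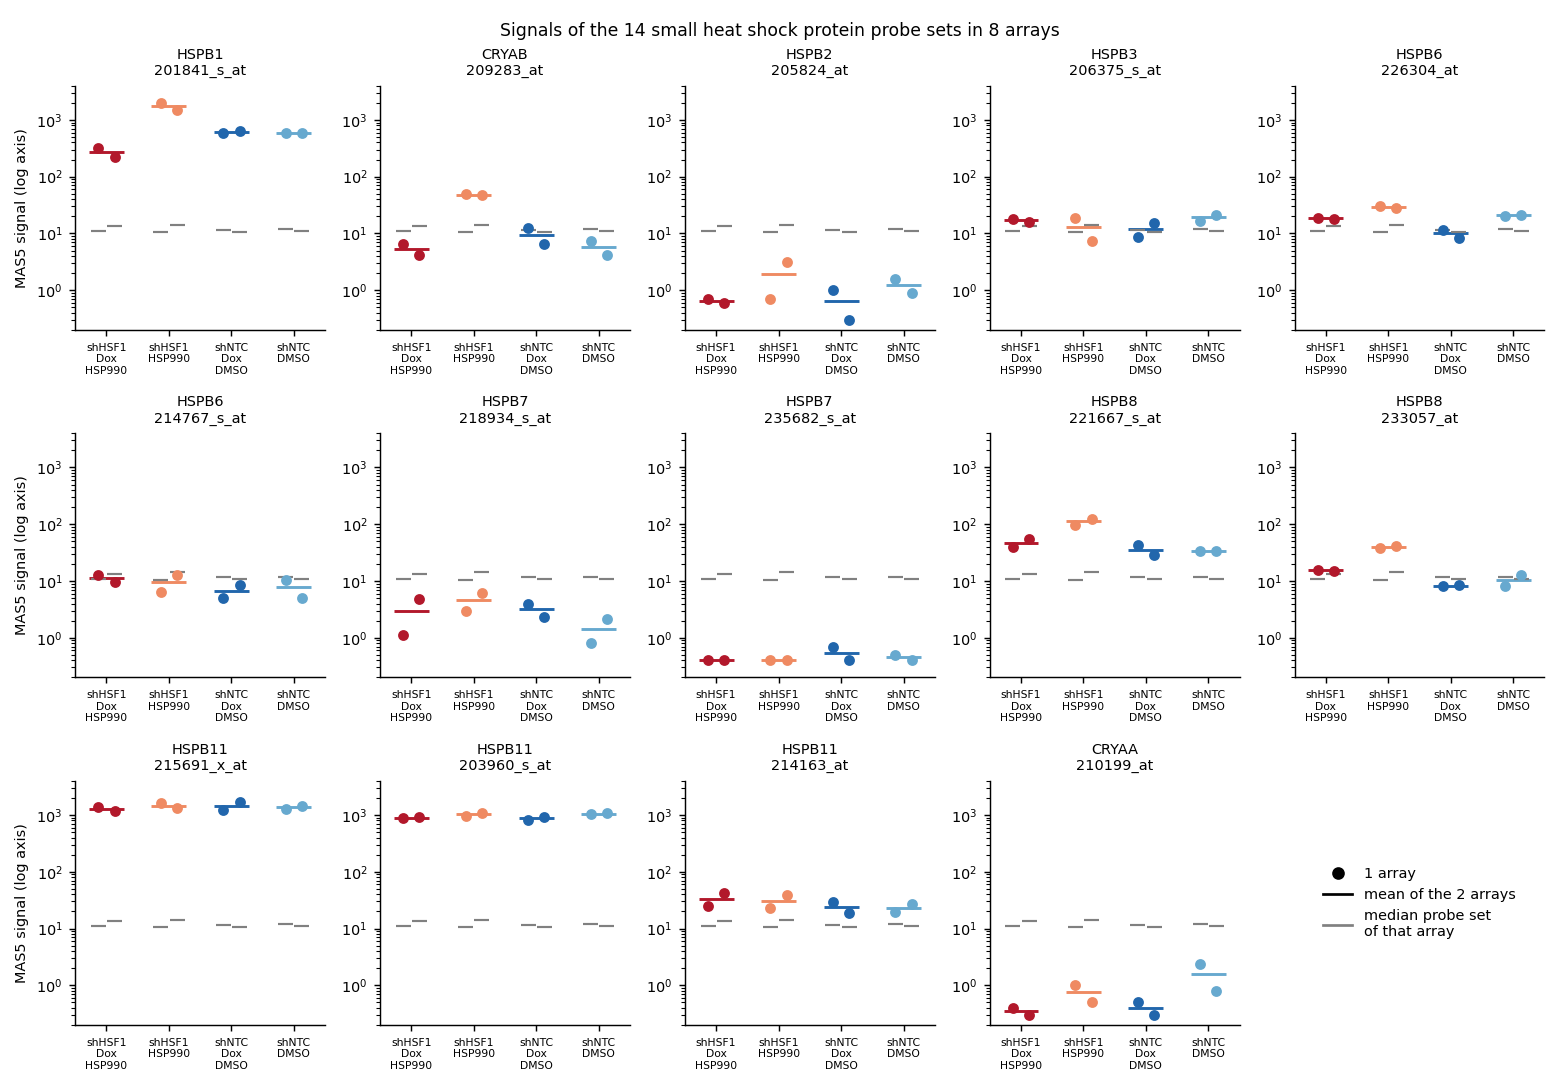
MAS5 signals (log axis) of all 14 probe sets in the 4 groups, with 1 point per array, a coloured line at the mean of the 2 arrays and a grey line at the median probe set of each array. HSPB1, CRYAB, both HSPB8 probe sets and 226304_at of HSPB6 stand highest in shHSF1 HSP990 cells, whereas the probe sets of HSPB2, HSPB7 and CRYAA stay below the grey lines throughout.

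HSPB1 (HSP27), the widely expressed member of the family that also protects actin filaments, had higher signals in shHSF1 HSP990 cells than in shNTC DMSO cells. With the knockdown its signals lay below those of the shNTC cells, the only cells without inhibitor. Its signals (201841_s_at) were 326.2 and 220.4 in shHSF1 Dox HSP990 cells, 2006 and 1500.2 in shHSF1 HSP990 cells, 589.2 and 633.4 in shNTC Dox DMSO cells, and 588.2 and 581.5 in shNTC DMSO cells. Both arrays with the inhibitor alone were the highest of the 8, and both arrays with the knockdown were the lowest.

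The mean HSPB1 signal was 1753 ± 358 in shHSF1 HSP990 cells and 584.9 ± 4.74 in shNTC DMSO cells (SD, n = 2 each), a ratio of 3.00. On the log2 scale the difference was 1.54 (SE 0.20, 95% interval 1.10 to 1.99, adjusted p = 0.0120), the 12th highest of 12672 genes. This call was lost without replicate 1 of the shHSF1 HSP990 cells (1.34, adjusted p = 0.0604) and without replicate 1 or 2 of the shNTC DMSO cells (adjusted p = 0.131 and 0.167). With the knockdown, HSPB1 averaged 273.3 ± 74.8 in shHSF1 Dox HSP990 cells, 6.41-fold lower than in shHSF1 HSP990 cells. It fell by 2.62 on the log2 scale (SE 0.20, 95% interval -3.07 to -2.17, adjusted p = 0.000243), and only 2 genes fell further. Whichever array was left out, this fall was called, at -2.89 to -2.36.

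HSPB1 was also the only small heat shock protein gene called between shHSF1 Dox HSP990 cells and shNTC Dox DMSO cells, where 2.99% of all genes were called lower. The means were 273.3 ± 74.8 in shHSF1 Dox HSP990 cells and 611.3 ± 31.3 in shNTC Dox DMSO cells (SD, n = 2 each), so that the signal was 2.24-fold lower with knockdown and inhibitor together. The log2 difference was -1.14 (SE 0.20, adjusted p = 0.00966). It was not called without replicate 2 of the shHSF1 Dox HSP990 cells (-0.87, adjusted p = 0.0695) or without replicate 2 of the shNTC Dox DMSO cells (-1.09, adjusted p = 0.0698), the array with the highest ACTB ratio.

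CRYAB (alpha B-crystallin, also HSPB5), a major protein of the lens that is also made in muscle and under stress, reached the array median only on both arrays with the inhibitor alone and on 1 other. Its signals (209283_at) were 6.6 and 4.2 in shHSF1 Dox HSP990 cells, 50 and 46.7 in shHSF1 HSP990 cells, 12.3 and 6.5 in shNTC Dox DMSO cells, and 7.4 and 4.2 in shNTC DMSO cells. The arrays with the inhibitor alone did not overlap with any other, and all of the other 6 but replicate 1 of the shNTC Dox DMSO cells lay below their array's median.

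The mean CRYAB signal was 5.40 ± 1.70 in shHSF1 Dox HSP990 cells, 48.4 ± 2.33 in shHSF1 HSP990 cells and 5.80 ± 2.26 in shNTC DMSO cells (SD, n = 2 each). All arrays of shHSF1 Dox HSP990 and of shNTC DMSO cells lay below their array's median, where MAS5 signals give no reliable level. With these arrays set at their medians, CRYAB was at least 4.21-fold higher in shHSF1 HSP990 cells than in shNTC DMSO cells, and at least 3.98-fold lower in shHSF1 Dox HSP990 cells than in shHSF1 HSP990 cells. On the log2 scale of the fit CRYAB rose by 1.57 with the inhibitor (log2, SE 0.18, adjusted p = 0.00638), and with the knockdown it fell by 1.59 (SE 0.18, adjusted p = 0.00187). Because the lower signals lay below the array median, both sizes moved with the constant added to the signal. With 1 added they were 2.90 and -2.97, and with 64 added 0.69 and -0.70. The rise lost its call without replicate 2 of the shNTC DMSO cells (1.46, adjusted p = 0.134), whereas the fall was called whichever array was left out. Between shHSF1 Dox HSP990 cells and shNTC Dox DMSO cells, CRYAB had a difference of -0.24 (95% interval -0.65 to 0.17, adjusted p = 0.531).

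HSPB2, which lies beside CRYAB on chromosome 11 and is known from muscle, stayed below the array median in every group. Its signals (205824_at) were 0.7 and 0.6 in shHSF1 Dox HSP990 cells, 0.7 and 3.1 in shHSF1 HSP990 cells, 1 and 0.3 in shNTC Dox DMSO cells, and 1.6 and 0.9 in shNTC DMSO cells. All 8 lay far below the array medians, where MAS5 signals give no reliable level. With no filter on low signals the HSPB2 difference with NVP-HSP990 was 0.050 (SE 0.086) and was not called.

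HSPB8 (HSP22), which works with BAG3 and HSP70 in removing misfolded proteins by autophagy, was higher on every array with the inhibitor alone than on the other 6, in both of its probe sets. The signals of 221667_s_at were 39 and 54.7 in shHSF1 Dox HSP990 cells, 98.1 and 125.8 in shHSF1 HSP990 cells, 42.5 and 28.6 in shNTC Dox DMSO cells, and 34.3 and 34.2 in shNTC DMSO cells. Those of 233057_at were 15.7 and 15 in shHSF1 Dox HSP990 cells, 37.7 and 41.4 in shHSF1 HSP990 cells, 8.2 and 8.4 in shNTC Dox DMSO cells, and 8.1 and 12.7 in shNTC DMSO cells. Without the inhibitor this second probe set reached its array's median on 1 of 4 arrays. The mean of the first was 3.27 times as high in shHSF1 HSP990 cells as in shNTC DMSO cells, and 2.39-fold lower with the knockdown.

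The difference of HSPB8 with NVP-HSP990 was 1.34 (log2, SE 0.23, 95% interval 0.84 to 1.84), the 20th highest of all genes, and was not called (adjusted p = 0.0550). It was called in 6 of the 14 other settings and without either array of shHSF1 Dox HSP990 cells (adjusted p = 0.0463 and 0.0455). With the knockdown HSPB8 fell by 1.03 (SE 0.23, adjusted p = 0.0406), a call lost in 7 of the 14 other settings and without any 1 of the 6 arrays other than those of shNTC Dox DMSO cells (-1.21 to -0.85, adjusted p = 0.0830 to 0.184). Tested singly, where 1.34% of probe sets were called lower, 233057_at fell by 0.82 with the knockdown (SE 0.17, adjusted p = 0.0431), and 221667_s_at was at the threshold (-1.03, adjusted p = 0.0523). Between shHSF1 Dox HSP990 cells and shNTC Dox DMSO cells the difference of HSPB8 was 0.29 (95% interval -0.21 to 0.79, adjusted p = 0.540).

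Of 10 partners of HSPB8 in chaperone-assisted autophagy, 7 could be tested. Only BAG3, the cochaperone that binds HSPB8 directly, was called with NVP-HSP990 and with the knockdown. Over all genes tested, 0.126% were called up with the inhibitor and down with the knockdown. BAG3 had signals of 391.2 and 368.1 in shHSF1 Dox HSP990 cells, 2510.3 and 2699.5 in shHSF1 HSP990 cells, 601.1 and 794.7 in shNTC Dox DMSO cells, and 649.1 and 718.7 in shNTC DMSO cells. It rose by 1.91 with the inhibitor (adjusted p = 0.00121), and with the knockdown it fell by 2.73 (adjusted p = 5.56e-05). Between shHSF1 Dox HSP990 cells and shNTC Dox DMSO cells BAG3 was called lower too (-0.84, adjusted p = 0.0161), as were 2.99% of all genes tested. The median over the 7 was 0.24 with NVP-HSP990 and -0.45 with the knockdown. The 7 include HSPB6, which is itself among the small heat shock protein genes examined here. STUB1, the ubiquitin ligase of this route, had differences of -0.018 and -0.025, and SQSTM1, the autophagy receptor, of 0.16 and -0.45, none of them called.

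**Figure D2:**
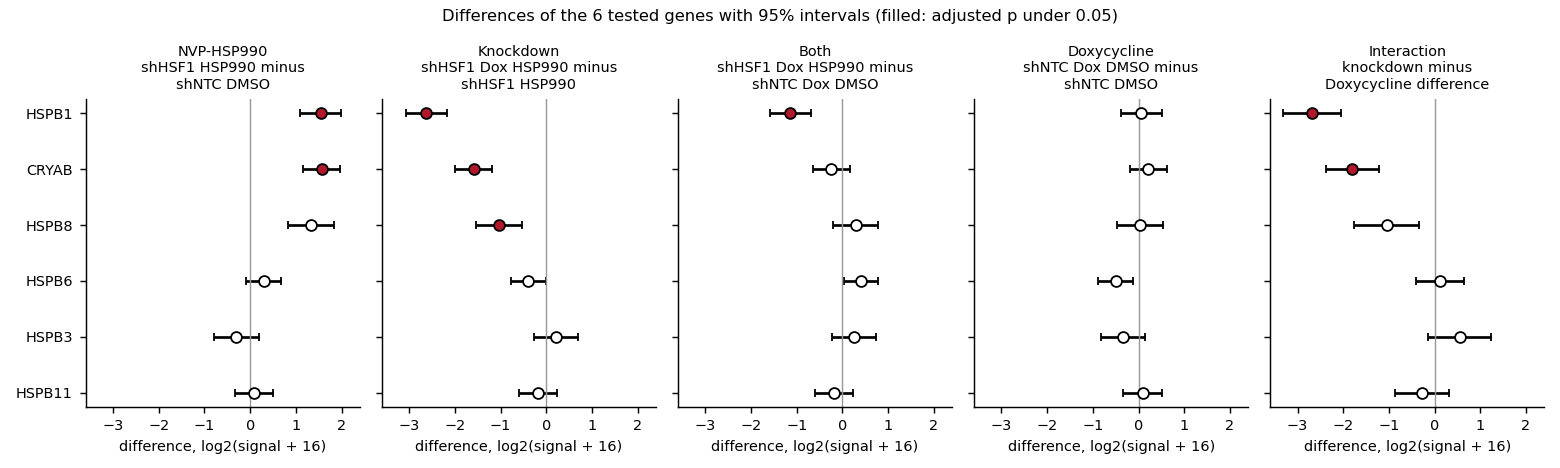
Differences in log2(signal + 16) of the 6 tested genes in the 5 comparisons, with 95% intervals from limma and filled points where the adjusted p was under 0.05. HSPB1 and CRYAB lie to the right with NVP-HSP990 and to the left with the knockdown, HSPB8 does so with smaller differences, and HSPB6, HSPB3 and HSPB11 have only open points, between -0.50 and 0.55.

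HSPB6 (HSP20), a cofactor of HSPB8 and BAG3 known from muscle, had its highest signals with the inhibitor alone too, but was called in no comparison. The signals of 226304_at were 18.9 and 18 in shHSF1 Dox HSP990 cells, 30.1 and 28.2 in shHSF1 HSP990 cells, 11.7 and 8.4 in shNTC Dox DMSO cells, and 20.6 and 21.1 in shNTC DMSO cells. In either hairpin line both arrays with Doxycycline lay below both arrays without it, as they did for 21.8% of all genes in shHSF1 cells and 16.7% in shNTC cells. The difference was -0.39 with the knockdown (log2, SE 0.17, adjusted p = 0.303) and -0.50 with Doxycycline in shNTC cells (SE 0.17, unadjusted p = 0.0136, adjusted p = 1.00), and the difference between these contrasts was 0.11 (SE 0.24, adjusted p = 0.932).

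With NVP-HSP990 HSPB6 had a difference of 0.29 (SE 0.17, adjusted p = 1.00), and with both treatments of 0.41 against shNTC Dox DMSO cells (SE 0.17, unadjusted p = 0.0369, adjusted p = 0.219). The second HSPB6 probe set, 214767_s_at, reached its array's median on 1 array and ranged over 5 to 12.9. It did not repeat the pattern, with signals of 12.7 and 9.7 in shHSF1 Dox HSP990 cells, 6.4 and 12.9 in shHSF1 HSP990 cells, 5 and 8.4 in shNTC Dox DMSO cells, and 10.5 and 5 in shNTC DMSO cells.

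HSPB3, known from muscle, stayed close to the array median. Its signals (206375_s_at) were 18 and 16 in shHSF1 Dox HSP990 cells, 18.7 and 7.5 in shHSF1 HSP990 cells, 8.8 and 15 in shNTC Dox DMSO cells, and 16.9 and 21.5 in shNTC DMSO cells. The arrays with the inhibitor alone differed more from each other than those of any of the other 3 groups. HSPB3 had differences of -0.30 with NVP-HSP990 (SE 0.22), 0.21 with the knockdown (adjusted p = 0.744) and -0.34 with Doxycycline, none of them called.

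HSPB7, a heart and muscle member, and CRYAA, the alpha A-crystallin of the lens, were below the array median everywhere. HSPB7 had signals of 0.8 to 6.2 with 218934_s_at and of 0.4 to 0.7 with 235682_s_at, and CRYAA of 0.3 to 2.4. With no filter on low signals neither was called in any comparison, with differences with NVP-HSP990 of 0.24 (SE 0.12) for HSPB7 and -0.070 (SE 0.075) for CRYAA. HSPB9 and ODF1, testis members of the family outside the list, were below the median in all 8 arrays as well.

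Markers of the tissues for which these members are known were low too. Of 12 muscle markers with a probe set, none was at or above the median in all 8 arrays and 9 were below it in all 8. Their summed signal was 60.2 to 64.6 in shHSF1 Dox HSP990 cells, 61.3 to 67.1 in shHSF1 HSP990 cells, 38.6 to 59.3 in shNTC Dox DMSO cells, and 38.4 to 41.8 in shNTC DMSO cells. Of 11 lens markers, 10 were below the median in all 8 arrays, and the sums were 47.8 to 53.6 in shHSF1 Dox HSP990 cells, 63 to 67.7 in shHSF1 HSP990 cells, 51.4 to 59.1 in shNTC Dox DMSO cells and 53.3 to 58.9 in shNTC DMSO cells. Only 2 of the muscle markers and 1 of the lens markers could be tested, and these were not called with NVP-HSP990 or with the knockdown. The part of either list in the member genes' values was not tested.

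HSPB11 carries the family's name but, as IFT25, is a subunit of the IFT-B complex, which moves cargo along cilia. Its signals with 215691_x_at were 1356.5 and 1173.9 in shHSF1 Dox HSP990 cells, 1594.9 and 1301.7 in shHSF1 HSP990 cells, 1239.5 and 1684.7 in shNTC Dox DMSO cells, and 1283.7 and 1441.3 in shNTC DMSO cells. The groups overlapped in each of the comparisons. The difference was 0.082 with NVP-HSP990 (log2, SE 0.19, 95% interval -0.33 to 0.50) and -0.19 with the knockdown (SE 0.19, 95% interval -0.61 to 0.23, adjusted p = 0.726), so that a shift of the size seen for HSPB1 lies outside both intervals.

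The x in the name of that probe set marks probes that can also match other transcripts, and the other HSPB11 probe sets were therefore read beside it. With 203960_s_at the signals were 866.8 and 924.3 in shHSF1 Dox HSP990 cells, 965.7 and 1077.8 in shHSF1 HSP990 cells, 822.8 and 932.1 in shNTC Dox DMSO cells, and 1047.9 and 1062.1 in shNTC DMSO cells. Its differences were -0.048 with NVP-HSP990 and -0.19 with the knockdown, and those of the dimmer 214163_at were 0.25 and 0.079. None of the 3 was called. Of 16 other IFT-B subunits 15 could be tested and none was called, with medians of 0.12 with NVP-HSP990 and 0.15 with the knockdown. The subunit nearest to a call was TTC26 (IFT56), with -0.75 with the knockdown (adjusted p = 0.0517).

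Over the 5 tested genes other than CRYAB, 1 was called higher with NVP-HSP990 (HSPB1), where 0.197% of all genes tested were called higher, and 2 lower with the knockdown (HSPB1, HSPB8), where 1.85% were called lower. None was called the other way, and the genes were chosen with earlier results of these data known. The median difference of the 5 was 0.29 with NVP-HSP990, beside 0.0096 over all genes, and -0.39 with the knockdown, beside 0.0015. HSPB1 was called in both comparisons, up with the inhibitor and down with the knockdown, as were 0.126% of the genes tested. These comparisons share the arrays of shHSF1 HSP990 cells, so that 1 high array moves both. In 3 of the 5 genes (HSPB1, HSPB8, HSPB6) both of these arrays lay above the other 6, as they did in 4.1% of all genes tested.

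Against shNTC Dox DMSO cells, shHSF1 Dox HSP990 cells had a median difference of 0.25 over the 5 genes, beside 0.014 over all genes, with HSPB1 alone called. Doxycycline in shNTC cells called none of the 6 and 0% of all genes, with a median of 0.024 for the 5 and -0.0064 for all. At an unadjusted p under 0.05 it gave 1 of the 6 (HSPB6) and 306 of all genes.

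The difference of HSPB1 with Doxycycline in shNTC cells was 0.061 (adjusted p = 1.00), that of CRYAB 0.21 and that of HSPB8 0.024. The knockdown difference minus the Doxycycline difference was -2.68 for HSPB1 (SE 0.29, adjusted p = 0.00569), where 0.481% of all genes were called lower. For CRYAB it was -1.81 (SE 0.26), a description only, since CRYAB entered the tests only through shHSF1 HSP990 cells. Its size ranged from -3.57 to -0.77 over the other settings. For HSPB8 it was -1.05 (SE 0.32, 95% interval -1.76 to -0.34) and was not called (adjusted p = 0.219). The 2 contrasts differ in hairpin and in treatment, so that hairpin and inhibitor cannot be told apart in them.

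**Figure D3:**
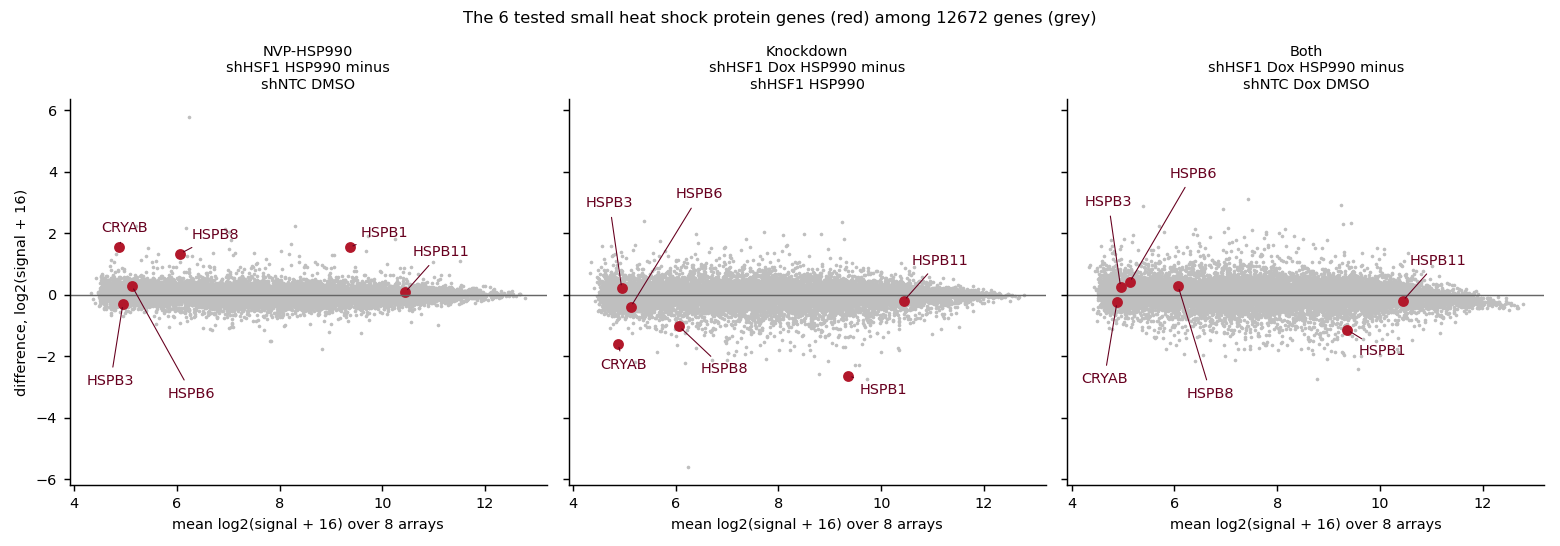
Differences in log2(signal + 16) against the mean over the 8 arrays for all 12672 genes tested (grey), with the 6 small heat shock protein genes in red, in 3 comparisons. HSPB1, CRYAB and HSPB8 are the 12th, 11th and 20th highest with NVP-HSP990 and the 3rd, 37th and 151st lowest with the knockdown, and with both treatments HSPB1 is the lowest of the 6, at -1.14, and the 137th lowest of all genes.

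The HSP70 machine, which takes over proteins held by small heat shock proteins, had calls in the same comparisons. Of 13 genes in that list, 10 had a probe set of their own and could be tested (all but HSPA1A, HSPA1B and HSPA8), of which the inhibitor gave 5 higher calls, where 0.197% of all genes were called higher, and the knockdown 7 lower ones, where 1.85% were called lower. The medians were 1.09 and -1.16. Called in both comparisons were DNAJB4, an HSP40 cochaperone (2.25 and -1.66), HSPA4L, of the HSP110 branch (2.19 and -2.23), HSPA6, HSPA1L and DNAJB1. HSPA6, a strictly inducible HSP70, had signals of 18.3 and 12.4 in shHSF1 Dox HSP990 cells, 1680.8 and 1328.5 in shHSF1 HSP990 cells, 5.1 and 12.7 in shNTC Dox DMSO cells, and 8 and 15.5 in shNTC DMSO cells. Outside shHSF1 HSP990 cells HSPA6 and HSPA1L had signals of at most 18.3, beside array medians of 10.6 to 14.2, so that the sizes of their differences rest on the constant added to the signal and are not given. HSPH1 (HSP110) and DNAJA1, an HSP40, were called with the knockdown and not with NVP-HSP990, and fell by 1.26 and by 0.75. The list was chosen with these differences known.

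Genes that act on or are held by small heat shock proteins gave no call with NVP-HSP990 or with the knockdown. Of 11 kinases that phosphorylate HSPB1 or act upstream of those that do, 9 could be tested. Their medians were -0.11 with NVP-HSP990 and -0.064 with the knockdown. Between shHSF1 Dox HSP990 cells and shNTC Dox DMSO cells 1 of them was called, PRKD3 (protein kinase D3), at -0.57 (adjusted p = 0.0462). MAPKAPK2, the main kinase of HSPB1, had differences of -0.79 (adjusted p = 0.507) and 0.50 (adjusted p = 0.329). Of 14 cytoskeletal and filament genes, 9 could be tested, with medians of 0.025 and -0.096. VIM, an intermediate filament protein, had differences of -0.047 and -0.21.

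Across the 8 arrays the members differed in which other genes followed them, described here by Pearson's r of log2(signal + 16) over arrays that fall into the same 4 groups. HSPB1 was closest to FAM13A (r = 0.969), BAG3 (0.967) and RASSF4 (0.966), and CRYAB to DEDD2 (0.979), DSP (0.973) and IER5L (0.969). HSPB8 was closest to DNAJB4 (0.990), WASIR2 (0.980) and NAP1L2 (0.973). HSPB6 was closest to HAGH (0.965), UROD (0.962) and MBNL2 (0.959), HSPB3 to PACRGL (0.935), NSD2 (0.932) and LMO7 (0.924), and HSPB11 to UQCRC2 (0.968), CCT4 (0.968) and MFF (0.963). Among the members, CRYAB had r = 0.890 with HSPB1 and 0.908 with HSPB8, while HSPB1 and HSPB8 had 0.661 with each other. The values of CRYAB are again only a description, since it entered the tests only through the group in which it was high. HSPB11 had 0.486 with HSPB1, 0.206 with CRYAB and -0.083 with HSPB8.

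Several of these calls moved with single arrays. Leaving out 1 array at a time, the difference of HSPB1 with NVP-HSP990 was 1.34 to 1.75, that of CRYAB 1.46 to 1.67 and that of HSPB8 1.18 to 1.50. With the knockdown they were -2.89 to -2.36, -1.67 to -1.51 and -1.21 to -0.85. None of these ranges could reach 0, since in each of these genes both shHSF1 HSP990 arrays lay above the other 6. CRYAB had moreover entered the tests only through that group, and its values are a description. The adjusted p crossed the threshold for HSPB1 and CRYAB with NVP-HSP990 and for HSPB8 in both comparisons.

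**Figure D4:**
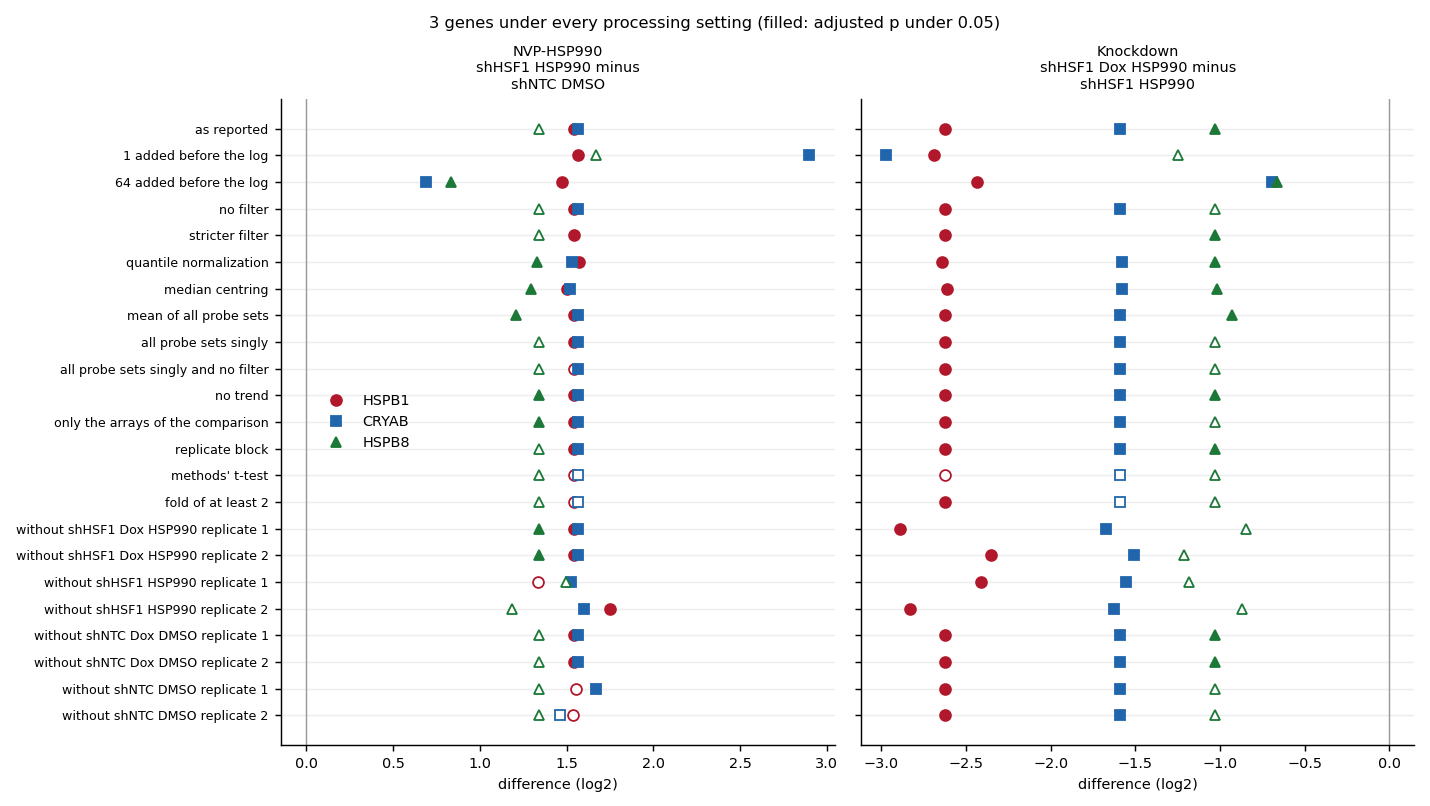
Log2 differences of HSPB1 (circles), CRYAB (squares) and HSPB8 (triangles) under each way of processing, with filled symbols where the adjusted p was under 0.05. No point lies across 0. With an array left out none could, since both shHSF1 HSP990 arrays lay above the others in these genes. The CRYAB points spread most with the value added before the log (0.69 to 2.90 with NVP-HSP990), and CRYAB has no point under the stricter filter.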

How the data were processed

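RNA of 8 samples was hybridized to HG-U133 Plus2 arrays. The authors deposited MAS5 signal intensities (MAS5 version not given in the sources used here). They are linear, scaled so that each array has a trimmed mean of 150 (2 percent of probe sets off either end), and were used as they are. Groups and replicate numbers came from the sample titles. The description fields name other experiments and were not used.

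Of 54675 probe sets, 41091 had a single gene symbol, 1801 had several and 11721 none, and 62 were controls, which were left out. Each gene was taken from its brightest probe set (mean log2 signal), and 12672 of 19775 genes had a signal at or above the array median in at least 2 arrays. Limma 3.58.1 in R 4.3.3 fitted log2(signal + 16) with a means model of the 4 groups and a trend on intensity (4 residual and 6.36 prior degrees of freedom). Two-sided p-values were adjusted by Benjamini-Hochberg across the tested genes, with calls below 0.05. With so few arrays, their number limits the precision. The steps were tested on simulated data.

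The paper names no test for its arrays. The alternatives were 1 or 64 added before the log, no filter, a stricter filter (4 arrays), quantile normalization, median centring, the mean of a gene's probe sets, all probe sets singly with and without the filter, no trend, a comparison's own arrays only, the replicate number as a block, the methods' t-test, a fold of at least 2, and each array left out.

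Named genes are the 9 members with every probe set, HSF1, ACTB as a control of RNA quality, the 3 genes closest to each member by Pearson's r, and up to 4 genes of each list. HSPH1, DNAJA1, STUB1, SQSTM1, PRKD3, LUM, COL1A1, DCN, PDGFRA, DNAJB1 and TTC26 were named after their values were seen. Members and lists (heat shock factors, the HSP70 machine, autophagy partners of HSPB8, kinases of HSPB1, cytoskeletal proteins, IFT-B, other family members, and melanoma, muscle, lens and fibroblast markers) were chosen with earlier results of these data known. Of the 4 heat shock factors, HSF4 and HSF5 were below the filter and HSF2 had no single-symbol probe set. Promoter sequences came from RefSeq.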

Additional observations from a re-analysis of the deposited data

Results flagged for a closer look

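The change of HSPB1 with Doxycycline differed between the 2 settings in which it was given, by a test of the difference itself in limma. For HSPB1, the knockdown difference (shHSF1 Dox HSP990 minus shHSF1 HSP990) minus the Doxycycline difference (shNTC Dox DMSO minus shNTC DMSO) was -2.68 (log2, adjusted p = 0.00569), and it was called whichever array was left out (adjusted p = 0.00254 to 0.0339). For CRYAB this difference was -1.81, and -1.97 to -1.64 when each array was left out, and is given as a description only. CRYAB was at or above the array median on only 3 arrays. It entered the tests only through shHSF1 HSP990 cells, the group in which it was high, and had to differ. With 2 arrays a group, no array could be tested as standing apart from its group.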

How the results depend on the processing

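HSPB1, CRYAB and HSPB8 kept the direction of their differences with NVP-HSP990 and with the knockdown under each alternative that gave a value. The alternatives reuse the same arrays, and in these genes both shHSF1 HSP990 arrays lay above the other 6. The direction could therefore hardly change, and its keeping is no support. The calls did depend on the processing. The counts that follow are out of the 9 genes, of which 6 could be tested as reported. They take in CRYAB, which entered the tests only through the group in which it was high, and are a description. Beside them, 0.221% of all genes tested were called with NVP-HSP990 and 2.84% with the knockdown. With both treatments 5.83% were called, and 0.789% for the knockdown minus the Doxycycline difference. With NVP-HSP990, 2 of the 9 genes were called, against 3 in 6 settings (64 added, quantile normalization, median centring, the mean of probe sets, no trend, its own arrays), 1 with the stricter filter and with probe sets singly and no filter, 0 with the methods' t-test or a fold of at least 2, and 0 to 3 when each array was left out. With the knockdown 3 were called, against 2 in 6 settings (1 added, no filter, the stricter filter, probe sets singly with and without the filter, its own arrays), 0 with the t-test, 1 with a fold of at least 2, and 2 to 3 when each array was left out. With both treatments 1 was called, against 0 with the t-test or the fold, and 0 to 1 when each array was left out. For the knockdown minus the Doxycycline difference 2 were called, against 1 with the stricter filter and with probe sets singly and no filter, 0 with the fold, and 1 to 2 when each array was left out. The stricter filter removed CRYAB. The other causes were not tested. The t-test was not run for the last comparison.

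Over all genes, 28 were called with NVP-HSP990, against 16 with no filter, 18 with probe sets singly and no filter, 1 with a fold of at least 2 and 5 to 30 when each array was left out. With the knockdown 360 were called, against 221 with no filter, 95 with only its own arrays, 5 with the fold and 123 to 380 when each array was left out. With both treatments 739 were called, against 450 with no filter, 11 with the fold and 263 to 802 when each array was left out. For the knockdown minus the Doxycycline difference 100 were called, against 59 with no filter, 39 with probe sets singly and no filter, 3 with the fold and 7 to 76 when each array was left out. The methods' t-test called 0 genes with NVP-HSP990, the knockdown or both treatments after Benjamini-Hochberg. Doxycycline called 0 genes under each alternative.

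Same-numbered arrays share only a number in the labels. Their deviations correlated at 0.685 between the knockdown groups and at 0.276 between the groups of the NVP-HSP990 comparison, at 0.0156 with both treatments and at 0.464 with Doxycycline. With the replicate number as a block, 44, 752, 1237 and 279 genes were called with NVP-HSP990, the knockdown, both treatments and the knockdown minus the Doxycycline difference, and the block changed no call of the 9 genes.

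The differences that changed sign were all small and not called. For HSPB11 they were -0.063 and -0.00035 with NVP-HSP990 (without replicate 1 of the shHSF1 HSP990 cells or of the shNTC DMSO cells, in a range up to 0.23), 0.049 and 0.026 with both treatments (mean of its probe sets, and without replicate 2 of the shNTC Dox DMSO cells, in a range of -0.41 to 0.026 over the arrays left out), and -0.052 and -0.13 with Doxycycline (the same settings, in a range up to 0.31). For HSPB3 it was -0.073 with the knockdown without replicate 2 of the shHSF1 HSP990 cells, in a range up to 0.49. For HSPB8 they were -0.045 and -0.17 with Doxycycline (mean of its probe sets, and without replicate 1 of the shNTC Dox DMSO cells, in a range up to 0.22).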
